A study of Mus musculus with 18 samples.

Results

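The genes described here are 30 lysosomal hydrolases, their cofactors and lysosomal membrane proteins other than cathepsins, together with Tfeb. They were listed by name with earlier results of these data known. Counts set beside all named genes below are therefore descriptions and no independent test. Of the 30 genes, 29 had at least 1 probe set with their symbol alone in the array annotation used, and all 29 were tested, among 13121 named genes tested in all. No such probe set was found for Cd63, a tetraspanin of late endosomes, which was not analysed here. The 29 genes had 67 probe sets, of which 61 were bright enough to be tested. The other 6 were dimmer probe sets of Ids, Neu1, Galc, Ppt1 and Npc2, each of which had another probe set that was tested. Each gene was read on its tested probe set of highest mean signal unless another is named.

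Total RNA of mouse hippocampus, on which spatial memory depends, was measured on Affymetrix arrays in 18 samples. In 6 aged samples spatial memory was impaired, in 6 further aged samples it was unimpaired, and the remaining 6 samples were young, which the labels also describe as unimpaired. Age and memory state therefore differ together between the aged impaired and the young group, and cannot be told apart there. No label says that the arrays are of separate animals, so a p-value here reflects the variation among the arrays, which may be partly technical. The labels give no strain, sex, exact age, genotype or batch. Values are log2(scaled signal + 16), and differences and standard errors (±) come from limma fitted to all 18 arrays, with 6 in each group. A gene passed the test at a Benjamini-Hochberg adjusted p under 0.05 over all 27022 probe sets tested.

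Lysosomes are acidic organelles in which hydrolases break down glycans, lipids and proteins delivered by endocytosis and autophagy. The hydrolases work in the lumen, while heavily glycosylated membrane proteins such as Lamp1 and Lamp2 line the organelle, and channels and transporters move ions and breakdown products out. Inherited loss of single enzymes causes storage diseases, many of which affect the brain, and microglia, the phagocytes of the brain, are rich in lysosomes. The transcription factor Tfeb is known to raise the expression of many lysosomal genes by binding to promoter elements built around the letters CACGTG.

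The defining markers of neurons, oligodendrocytes, astrocytes and microglia were at 6.68 (Itgam) or above in every sample, on a scale whose floor is 4. The mean of 10 neuronal markers lay between 13.38 and 13.48 in aged impaired, between 13.39 and 13.60 in aged unimpaired and between 13.33 and 13.49 in young samples. Markers of microglia and of the choroid plexus touch the results below. The mean of 22 microglia markers lay between 9.44 and 9.88 in aged impaired and between 9.36 and 9.86 in aged unimpaired samples, against 8.97 to 9.21 in young samples, so that neither aged group overlapped with the young group. The mean of 13 choroid plexus markers lay between 7.28 and 10.62 in aged impaired, between 6.74 and 10.51 in aged unimpaired and between 7.24 and 10.39 in young samples, which overlapped throughout. In tissue RNA, more cells of a type and more of a transcript per cell cannot be told apart.

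In aged impaired against young hippocampus, 4 of the 29 lysosomal genes rose and none fell. They were Cd68, Gusb, Man2b1 and Scarb2, whose rises were 1.975-fold, 1.35-fold, 1.34-fold and 1.20-fold. Among all 13121 named genes, 1.3 percent rose in the same comparison. The other 25 lysosomal genes did not pass, and 9 of the 29 had a higher mean at an unadjusted p under 0.05, against 8.46 percent of all named genes. The median difference of the 29 genes was 0.12, against -0.003 over all named genes, and 21 had a higher mean in aged impaired samples. That median was -0.13, with 13 of 29 higher, when the mean of the microglia markers was a covariate, and 0.07 when all probe sets of a gene were averaged. Counted by probe set, 4 of 61 rose, against 1.03 percent of all probe sets tested. The groups did not overlap, with every aged impaired value above every young value, for Cd68, Man2b1 and Scarb2, against 1.44 percent of all named genes.

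Cd68, also called macrosialin, is a heavily glycosylated membrane protein of lysosomes and late endosomes in macrophages and microglia. Its probe set 1449164_at had deposited signals from 99.2 to 239.5 (median 131.9) in aged impaired and from 91.1 to 190.3 (median 109.95) in aged unimpaired samples, against 48.1 to 79.6 (median 72.65) in young samples. On the log2 scale the lowest, median and highest values were 8.44, 8.83 and 9.67 in aged impaired samples, 8.32, 8.58 and 9.35 in aged unimpaired samples, and 7.46, 8.01 and 8.14 in young samples. All 12 aged samples lay above all 6 young samples, and the aged groups overlapped with each other. Young sample 3 was the lowest, and aged impaired sample 2 and aged unimpaired sample 6 were the highest of their groups. Cd68 rose by 0.98 ± 0.20 in aged impaired against young samples (limma adjusted p = 0.0157, 95% interval 0.57 to 1.39). It rose by 0.86 ± 0.17 in both aged groups together (adjusted p = 0.0187), a call that was lost without young sample 3, where the difference was 0.76 ± 0.17 (adjusted p = 0.0551).

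Gusb, or beta-glucuronidase, removes glucuronic acid from glycosaminoglycans. Its probe set 1448124_at had lowest, median and highest values of 8.13, 8.43 and 8.76 in aged impaired samples, 8.12, 8.19 and 8.34 in aged unimpaired samples, and 7.76, 8.04 and 8.20 in young samples. Aged impaired sample 5, at 8.13, lay within the young range, while the other 5 aged impaired samples lay above it. The difference between aged impaired and young samples was 0.43 ± 0.09 (limma adjusted p = 0.0287). A second, dimmer Gusb probe set, 1430332_a_at, differed by 0.22 ± 0.12 (adjusted p = 0.412), the same direction without passing.

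Man2b1, the lysosomal alpha-mannosidase, trims mannose from glycoprotein glycans. Values of its probe set 1416340_a_at were 10.32, 10.54 and 10.73 in aged impaired samples, 10.13, 10.44 and 10.72 in aged unimpaired samples, and 10.02, 10.09 and 10.29 in young samples (lowest, median and highest). The aged impaired and young groups did not overlap, and the aged unimpaired group overlapped with both. Man2b1 rose by 0.43 ± 0.10 in aged impaired against young samples (limma adjusted p = 0.0344). Its second probe set, 1436781_at, differed by -0.02 ± 0.12 (adjusted p = 0.964), so the rise was seen on 1 of its 2 tested probe sets.

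Scarb2 is a membrane protein that carries glucocerebrosidase to the lysosome. Its probe set 1454704_at had lowest, median and highest values of 12.52, 12.57 and 12.66 in aged impaired samples, 12.36, 12.52 and 12.68 in aged unimpaired samples, and 12.21, 12.34 and 12.38 in young samples. Every aged impaired value exceeded every young value, and the aged unimpaired group spanned the gap between them. The difference of 0.26 ± 0.06 between aged impaired and young samples was just inside the threshold (limma adjusted p = 0.0491). The other probe set, 1460235_at, differed by -0.02 ± 0.09 (adjusted p = 0.932).

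The 4 calls differed in how far they depended on single arrays. When each of the 18 arrays was left out in turn, Cd68 passed in aged impaired against young samples in all 18 fits, Gusb in 12, Man2b1 in 9 and Scarb2 in 2, the fits without aged unimpaired sample 2 or 6. Without aged impaired sample 2 or 6, or without young sample 2, 3, 5 or 6, Cd68 was the only lysosomal gene to pass. Without aged impaired sample 1, 3 or 4, Gusb and Cd68 were the 2 that passed.

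**Figure D1:**
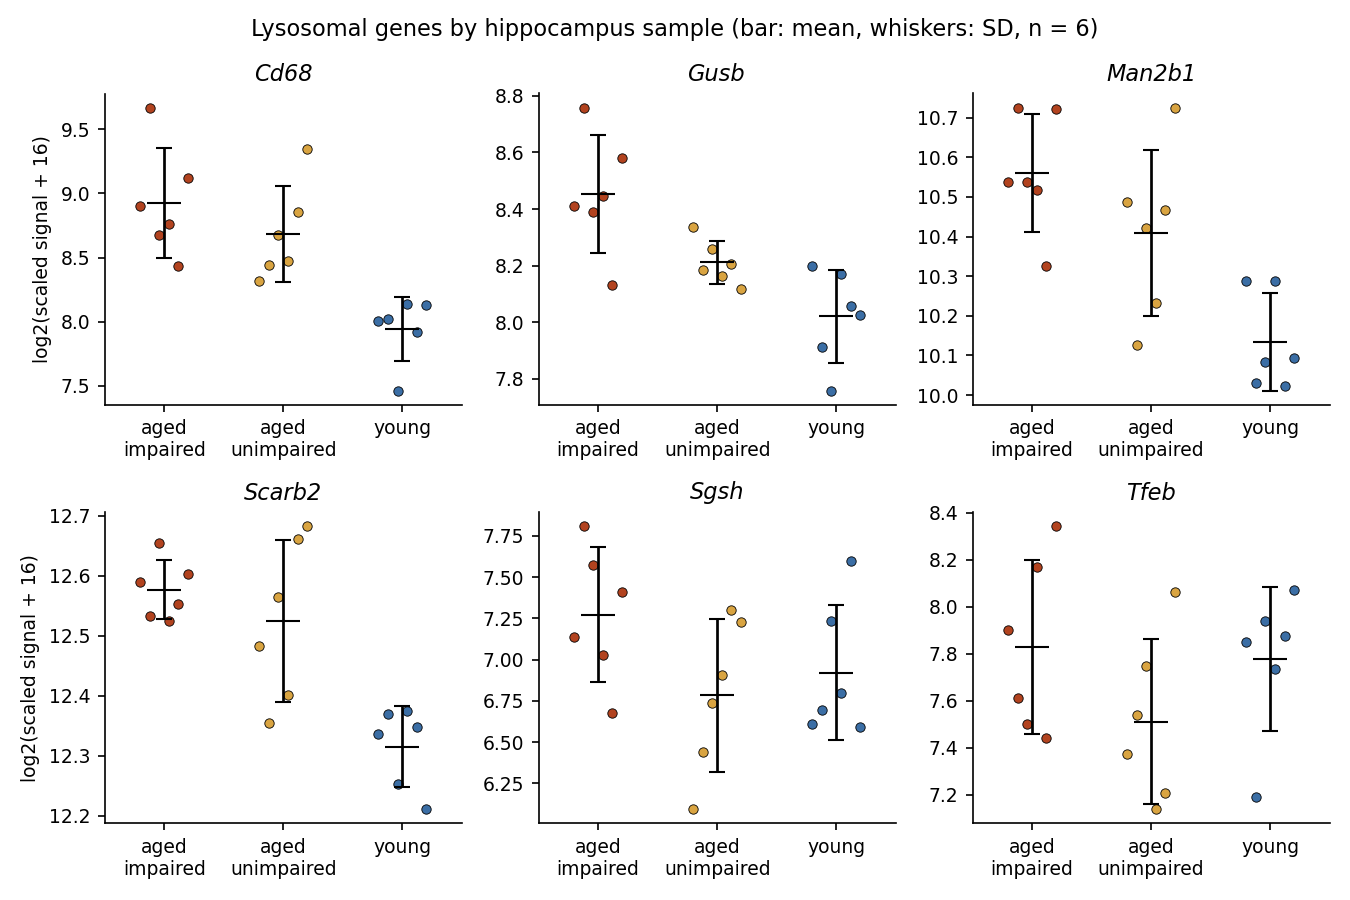
Log2(scaled signal + 16) of Cd68, Gusb, Man2b1, Scarb2, Sgsh and Tfeb in each hippocampus sample, with aged impaired, aged unimpaired and young samples from left to right; points are arrays, bars are means and whiskers are SD (n = 6). All 12 aged samples lie above the 6 young samples for Cd68, aged impaired and young samples are apart for Man2b1 and Scarb2, and the 3 groups overlap for Sgsh and Tfeb. Axes differ between panels and do not start at 0.

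The promoters of the 4 genes that rose are shown. Like most of the lysosomal genes searched, none of them holds CACGTG in the window searched. The sequences are from RefSeq on GRCm38.p6, 150 bases before to 50 bases after each gene's start, read 5′ to 3′ on the gene's strand. Cd68 lies at chr11:69666121-69666320 on the minus strand, Gusb at chr5:130003000-130003199 on the minus strand, Man2b1 at chr8:85083119-85083318 on the plus strand and Scarb2 at chr5:92505608-92505807 on the minus strand.
Cd68: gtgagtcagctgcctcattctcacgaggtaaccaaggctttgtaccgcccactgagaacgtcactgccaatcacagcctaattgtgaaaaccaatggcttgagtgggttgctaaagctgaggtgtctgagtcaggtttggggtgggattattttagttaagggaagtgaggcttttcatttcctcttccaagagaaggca
Gusb: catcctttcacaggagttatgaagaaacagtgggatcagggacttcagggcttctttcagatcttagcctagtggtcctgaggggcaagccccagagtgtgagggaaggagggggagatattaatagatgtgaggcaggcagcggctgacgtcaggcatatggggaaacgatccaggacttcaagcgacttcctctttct
Man2b1: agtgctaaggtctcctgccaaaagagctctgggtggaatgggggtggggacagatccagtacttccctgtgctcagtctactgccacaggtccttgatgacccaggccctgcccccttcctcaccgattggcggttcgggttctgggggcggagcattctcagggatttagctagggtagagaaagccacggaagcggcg
Scarb2: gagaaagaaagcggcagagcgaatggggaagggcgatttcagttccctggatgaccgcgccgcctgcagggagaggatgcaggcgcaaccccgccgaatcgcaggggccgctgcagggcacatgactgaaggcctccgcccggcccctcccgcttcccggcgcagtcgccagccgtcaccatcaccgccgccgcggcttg

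Of the 30 genes, 28 were in the RefSeq promoter table, and 7 of these 28 held CACGTG between 250 bases before and 50 bases after the start, which is 25.0 percent, against 8.09 percent of 27025 genes. They were Glb1, Naglu, Gaa, Sgsh, Arsa, Mcoln1 and Lamp1. The longer TCACGTGA, which contains CACGTG, was found in 1 of 28, Mcoln1, against 1.13 percent of genes (304 of 27025). Both motifs read the same on both strands. Lamp1, with 4 matches at chr8:13159061-13159160 on the plus strand, and Mcoln1, with 2 matches at chr8:3500419-3500518 on the plus strand, held the most, and a 100-base stretch of each is shown with CACGTG in capitals.
Lamp1: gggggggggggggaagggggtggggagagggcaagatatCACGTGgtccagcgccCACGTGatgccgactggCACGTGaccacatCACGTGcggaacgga
Mcoln1: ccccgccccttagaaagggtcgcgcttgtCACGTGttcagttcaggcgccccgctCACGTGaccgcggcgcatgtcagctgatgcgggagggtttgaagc
None of these 7 genes passed the test in any of the 4 comparisons, in which at most 1.3 percent of all named genes rose. A link between the motif and the differences was not tested. A match is a description of the letters, and a window without one says nothing about binding.

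Among the 6 hydrolases of glycosaminoglycans, Gusb rose in aged impaired against young samples and the other 5 did not pass. Idua and Ids, which act on iduronic acid residues, differed by 0.06 ± 0.11 and 0.04 ± 0.09. Naglu, which removes N-acetylglucosamine from heparan sulfate, differed by 0.12 ± 0.16, and Arsb, a sulfatase of dermatan and chondroitin sulfate, by -0.02 ± 0.07. Sgsh, the sulfamidase of heparan sulfate, differed by 0.35 ± 0.23 (limma adjusted p = 0.490) and had the widest spread within groups of the 29 genes, with an SD of 0.427.

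Of the 4 hydrolases of glycoproteins and glycogen, Man2b1 rose in aged impaired against young samples and the other 3 did not pass. Neu1, the lysosomal sialidase, had values of 9.53, 9.67 and 9.77 in aged impaired samples, against 9.24, 9.47 and 9.66 in young samples, and the groups overlapped. Its difference was 0.20 ± 0.07 (limma adjusted p = 0.202), and its second tested probe set differed by 0.23 ± 0.35 (adjusted p = 0.806). Glb1, or beta-galactosidase, and Gaa, which breaks down glycogen, differed by -0.05 ± 0.11 and -0.05 ± 0.12.

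On their brightest probe sets, the 7 genes of sphingolipid breakdown stayed within a narrow range. In aged impaired against young samples their differences ran from -0.14 for Arsa, the sulfatase of sulfatide, to 0.12 for Galc, which removes galactose from galactosylceramide, with a median of 0.01. Hexa, the alpha subunit of hexosaminidase A, differed by 0.01 ± 0.09 and its cofactor Gm2a by 0.04 ± 0.09. Asah1, acid ceramidase, and Smpd1, acid sphingomyelinase, each differed by -0.01 ± 0.07, and Psap, the precursor of the saposin cofactors, by 0.05 ± 0.07. Their dimmer tested probe sets ran more widely, from -0.41 ± 0.16 for 1 of Galc to 0.28 ± 0.34 for 1 of Gm2a. None of the 7 genes passed in any comparison. The 95% intervals for Asah1 (-0.15 to 0.13), Smpd1 (-0.16 to 0.14) and Psap (-0.10 to 0.20) bound how large a difference these samples allow.

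Several lysosomal genes that did not pass had means that were higher in aged impaired samples. Ppt1, the thioesterase that removes palmitate from proteins, had values of 10.62, 10.69 and 10.93 in aged impaired samples, 10.56, 10.66 and 10.73 in aged unimpaired samples, and 10.43, 10.46 and 10.72 in young samples. The groups overlapped through the highest young sample, and the difference between aged impaired and young samples was 0.21 ± 0.07 (limma adjusted p = 0.138). Tpp1, a tripeptidyl peptidase, differed by 0.21 ± 0.11 (adjusted p = 0.344). Npc1 and Npc2 work together to move cholesterol out of the lysosome, and differed by 0.28 ± 0.11 (adjusted p = 0.233) and 0.38 ± 0.16 (adjusted p = 0.255). Lipa, which frees cholesterol and fatty acids from their esters, differed by -0.02 ± 0.09. Grn, or progranulin, a secreted and lysosomal protein, differed by 0.19 ± 0.09 (adjusted p = 0.296).

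Among the 5 tested membrane proteins, Cd68 and Scarb2 rose in aged impaired against young samples. Lamp1 and Lamp2 are the abundant glycoproteins of the lysosomal membrane, and Lamp2 also serves in chaperone-mediated autophagy. Lamp2 had values of 10.71, 11.33 and 11.51 in aged impaired samples, 10.81, 11.01 and 11.63 in aged unimpaired samples, and 10.47, 10.92 and 11.14 in young samples. The 3 groups overlapped, and the difference between aged impaired and young samples was 0.31 ± 0.16 (limma adjusted p = 0.351), with its other 3 probe sets between 0.17 and 0.38. Lamp1 differed by 0.13 ± 0.08, and Mcoln1, a cation channel that releases calcium from lysosomes, by -0.09 ± 0.07. Tfeb differed by 0.05 ± 0.19.

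Between aged impaired and aged unimpaired samples, which differ in spatial memory at old age, none of the 29 lysosomal genes passed in either direction. Over all named genes 0.00762 percent, 1 gene, rose. By the unadjusted p, 2 of 29 had a higher mean at p under 0.05, Gusb and Sgsh, against 4.42 percent of all named genes, and the 29 had a median difference of 0.07, against 0.01 over all named genes. The means were higher in aged impaired samples for 23 of 29, against 6860 of all 13121. No lysosomal gene had every aged impaired value above every aged unimpaired value, against 0.312 percent of all named genes. All 13 choroid plexus markers had higher means in aged impaired than in aged unimpaired samples, by a median of 0.87, and none passed. With their mean as a covariate, the median difference of the 29 lysosomal genes was 0.05. The median difference of the 22 microglia markers was 0.13, and none passed. With the microglia mean as a covariate, the median difference of the lysosomal genes was 0.03, with 19 of 29 higher. Of 9 oligodendrocyte markers, 7 had higher means in aged impaired samples, by a median of 0.24 over the list. None of the 9 passed, 3 were higher at an unadjusted p under 0.05, and Mog and Mag had groups that did not overlap. Of 10 neuronal markers, 8 had lower means in aged impaired samples, against 6261 of all 13121 named genes. Their median difference was -0.08, and none passed. By the unadjusted limma p under 0.05, 2 of the neuronal markers were lower and 1 was higher.

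Gusb differed by 0.24 ± 0.09 between aged impaired and aged unimpaired samples (limma adjusted p = 0.538), from the values given above. Sgsh had values of 6.68, 7.27 and 7.81 in aged impaired samples, 6.09, 6.82 and 7.30 in aged unimpaired samples, and 6.59, 6.75 and 7.60 in young samples. The 3 groups overlapped, and the difference between the aged groups was 0.49 ± 0.23 (adjusted p = 0.615, 95% interval 0.00 to 0.97). The second Sgsh probe set differed by 0.06 ± 0.32. Tfeb, with values of 7.44, 7.76 and 8.34 in aged impaired samples and 7.14, 7.46 and 8.06 in aged unimpaired samples, differed by 0.32 ± 0.19 (adjusted p = 0.702), and the groups overlapped. The 95% intervals of 25 of the 29 genes lay within 0.5 on either side of 0, and those of Sgsh, Npc2, Cd68 and Tfeb reached beyond it.

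In aged unimpaired against young samples, none of the 29 lysosomal genes passed, against 0.114 percent of all named genes that rose. By the unadjusted p, 3 had a higher mean at p under 0.05, against 3.99 percent of all named genes. They were Cd68, with a difference of 0.74 ± 0.20 (limma adjusted p = 0.207), Scarb2, with 0.21 ± 0.06 (adjusted p = 0.327), and Man2b1, with 0.28 ± 0.10 (adjusted p = 0.427). Cd68 was the 1 lysosomal gene whose aged unimpaired values all lay above the young values, against 0.526 percent of all named genes. The median difference of the 29 genes was 0.04, against -0.01 over all named genes, and 19 had a higher mean. Without aged unimpaired sample 6 that median was 0.00, and without young sample 1 it was 0.0046. It was -0.01, with 13 of 29 higher, with the ratio of 3′ to 5′ control probe sets as a covariate, and -0.12, with 9 of 29 higher, with the microglia mean as a covariate. Both comparisons with young share the 6 young samples.

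With both aged groups combined against young samples, Cd68 was the 1 of 29 that rose, against 0.815 percent of all named genes. It was also the 1 lysosomal gene with every aged value above every young value, against 0.282 percent of all named genes. Scarb2, with a difference of 0.24 ± 0.06 (limma adjusted p = 0.0557), Man2b1, with 0.35 ± 0.08 (adjusted p = 0.0576), and Gusb, with 0.31 ± 0.08 (adjusted p = 0.0910), did not pass. The median difference was 0.06, against -0.01 over all named genes, and 20 of 29 had a higher mean. That median was -0.12, with 10 of 29 higher, with the microglia covariate. It was 0.03 both with the ratio of 3′ to 5′ control probe sets as a covariate and with all probe sets of a gene averaged.

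**Figure D2:**
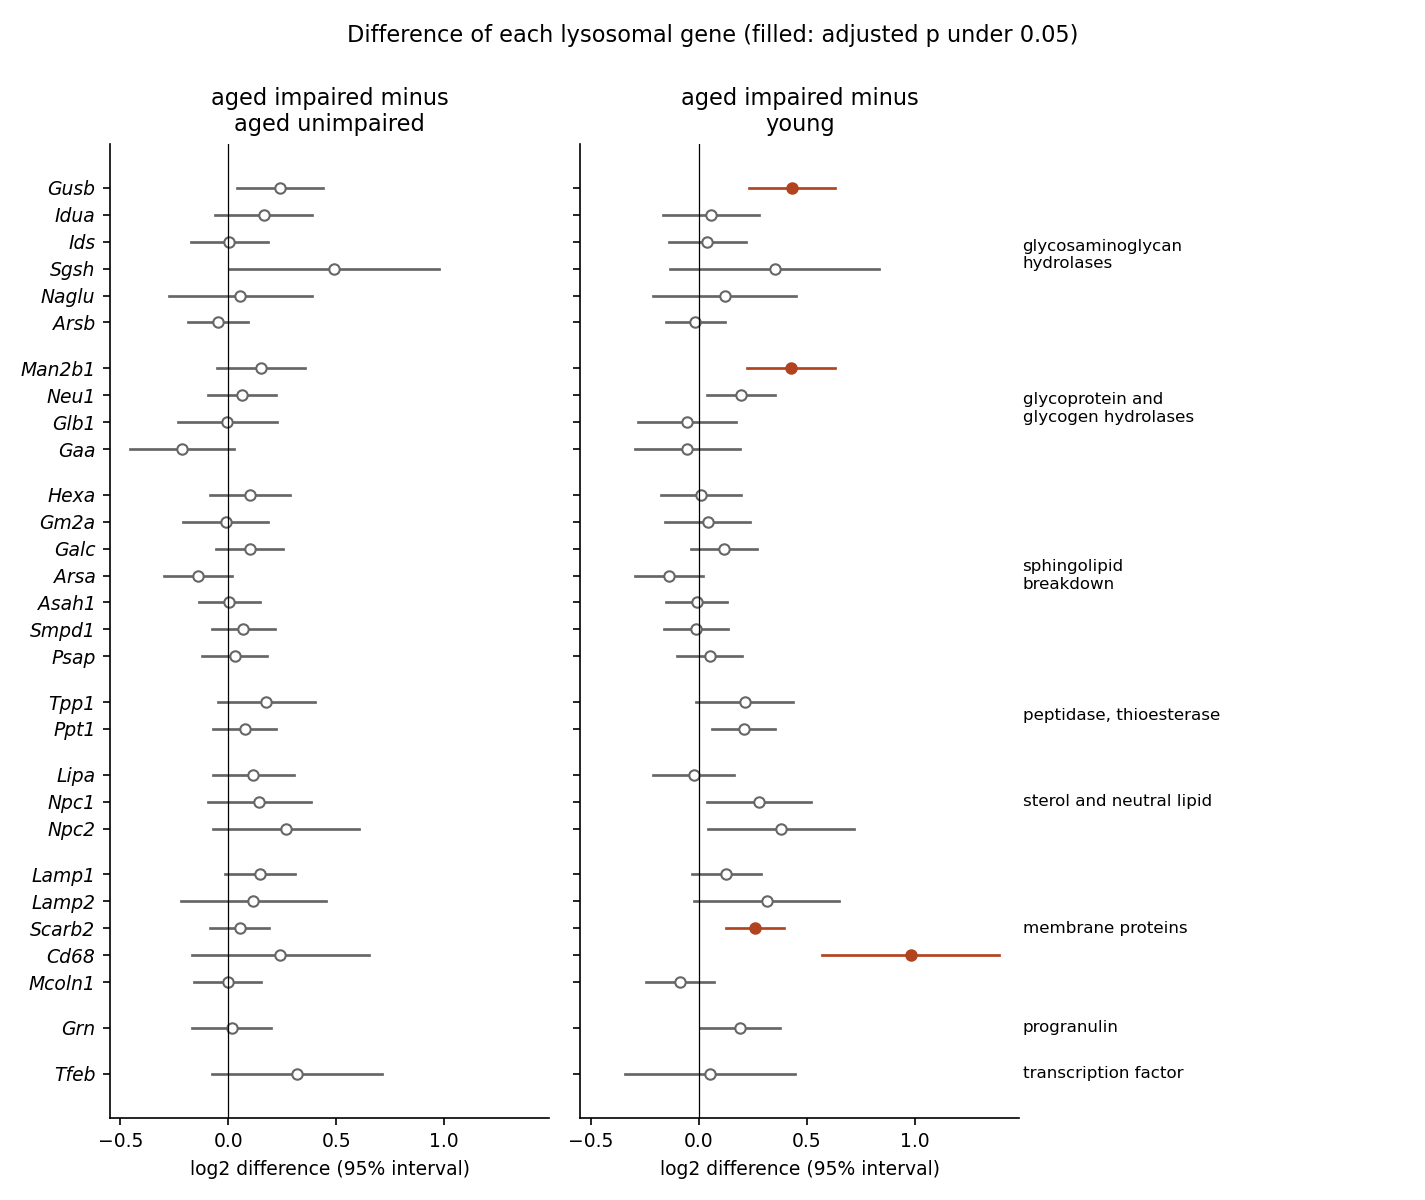
Log2 difference of each lysosomal gene with its 95% interval, aged impaired minus aged unimpaired on the left and aged impaired minus young on the right, grouped by role; filled points passed at an adjusted p under 0.05. No point is filled on the left, and 4 are on the right, Gusb, Man2b1, Scarb2 and Cd68, with Cd68 at 0.98.

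Probe sets of the same gene did not always point the same way. Of the 20 genes with more than 1 tested probe set, all probe sets had the same sign in aged impaired against young samples for 8 genes and mixed signs for 12. The signs were the same for 13 of 20 in aged impaired against aged unimpaired samples. All tested probe sets of Gusb, Grn, Lamp2, Npc2, Neu1, Tpp1 and Psap were higher in aged impaired than in young samples, and both of Gaa were lower. The 12 with mixed signs were Idua, Ids, Sgsh, Arsb, Man2b1, Gm2a, Galc, Smpd1, Ppt1, Lipa, Scarb2 and Mcoln1. The brightest probe sets of Gaa, Grn, Lipa and Mcoln1 carry a suffix by which the manufacturer marks possible hybridisation to other transcripts.

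Single arrays carried high or low values over many of the 29 genes. Aged impaired sample 2 was the highest of its group for 14 genes (48.3 percent, against 22.4 percent of all named genes), and aged impaired sample 5 was the lowest for 17 (58.6 percent, against 19.1 percent). Aged unimpaired sample 6 was the highest of its group for 18 of 29 (62.1 percent, against 20.4 percent of all named genes). The mean of the 29 genes lay between 10.38 and 10.66 in aged impaired samples, between 10.37 and 10.63 in aged unimpaired samples, and between 10.33 and 10.44 in young samples. The median difference of the 29 genes between the aged groups was 0.07 with all arrays. It was 0.05 without aged impaired sample 2, 0.10 without aged impaired sample 5 and 0.09 without aged unimpaired sample 6. Within groups the lysosomal genes had a median SD of 0.147, against 0.184 over all named genes, from 0.0916 for Scarb2 to 0.427 for Sgsh.

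**Figure D3:**
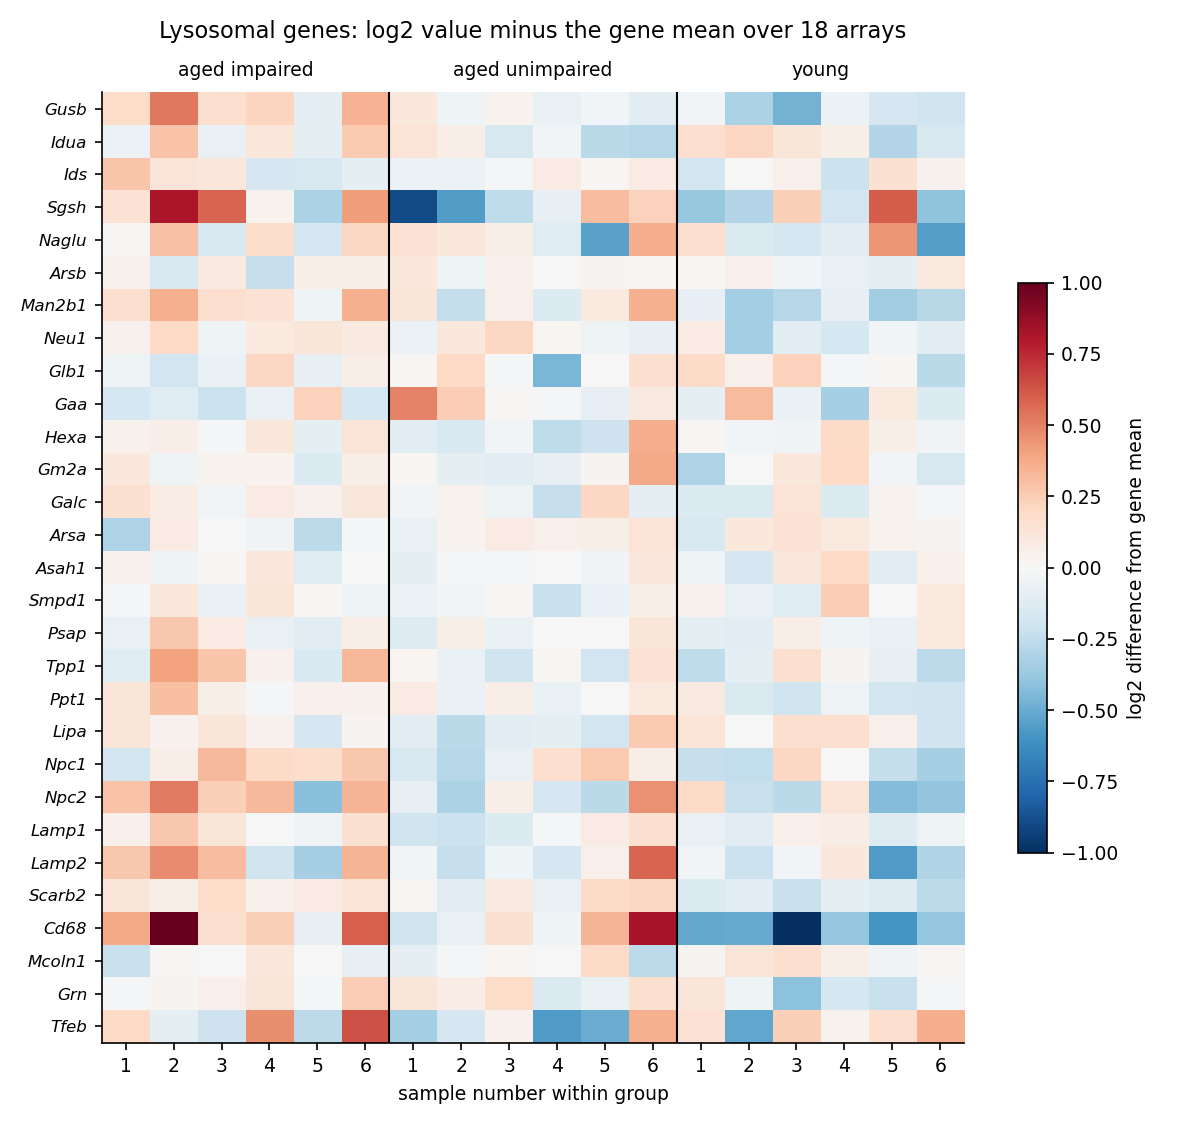
Log2 value of each of the 29 lysosomal genes minus its mean over all 18 arrays, with genes as rows and samples as columns, aged impaired, aged unimpaired and young from left to right; red is higher and blue is lower, and the colours stop at 1 on either side of 0, which 2 Cd68 values exceed. The Cd68 row is blue in all 6 young samples, and the columns of aged impaired sample 2 and aged unimpaired sample 6 are red over many genes.

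Those 2 aged arrays also had the highest means of the microglia markers, 9.88 for aged impaired sample 2 and 9.86 for aged unimpaired sample 6. Other marker means varied with the arrays as well. Aged unimpaired sample 6 was the highest of its group for choroid plexus (10.51), astrocyte (12.43) and oligodendrocyte (12.15) markers. The highest choroid plexus mean among aged impaired samples was in sample 3, at 10.62. Aged impaired sample 5 had the lowest choroid plexus mean of its group, 7.28. Its microglia mean was 9.48, above the 9.44 of sample 4. In aged impaired against young samples, 10 of 22 microglia markers rose, against 1.3 percent of all named genes, and none fell, with a median difference of 0.48. When the mean of these markers was added to the fit as a covariate, no lysosomal gene passed in any comparison. The differences between aged impaired and young samples were then 0.01 ± 0.25 for Cd68, 0.01 ± 0.14 for Man2b1, 0.24 ± 0.17 for Gusb and 0.13 ± 0.12 for Scarb2, with limma adjusted p-values of 0.995, 0.994, 0.702 and 0.769. The microglia mean itself separates aged from young samples, and with it in the fit the median standard error over all named genes was 0.19, against 0.11 without it. Of all probe sets tested, 7 then passed, against 440 without it. The part of microglia in these differences was not tested beyond this fit.

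Within groups, the slope of each gene on the microglia mean was fitted beside the 3 group means. Of the 29 lysosomal genes, 1 had a positive slope that passed, against 0.518 percent of all named genes. That gene was Lamp2, with a slope of 1.48 ± 0.31 log2 units per unit (limma adjusted p = 0.0462), and Cd68 followed with 1.79 ± 0.38 (adjusted p = 0.0535). On the mean of the choroid plexus markers no lysosomal slope passed, against 1.8 percent of all named genes with a positive one. These slopes ran from -0.03 ± 0.02 for Mcoln1 to 0.13 ± 0.04 for Npc2. Lipa, at 0.08 ± 0.02, had the lowest adjusted p (limma, 0.180). Most lysosomal slopes on either marker mean were positive, and the share of positive slopes over all named genes was not counted. With the choroid plexus mean as a covariate, the differences between aged impaired and young samples were again 0.98 for Cd68, 0.43 for Gusb, 0.43 for Man2b1 and 0.26 for Scarb2, and all 4 passed.

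**Figure D4:**
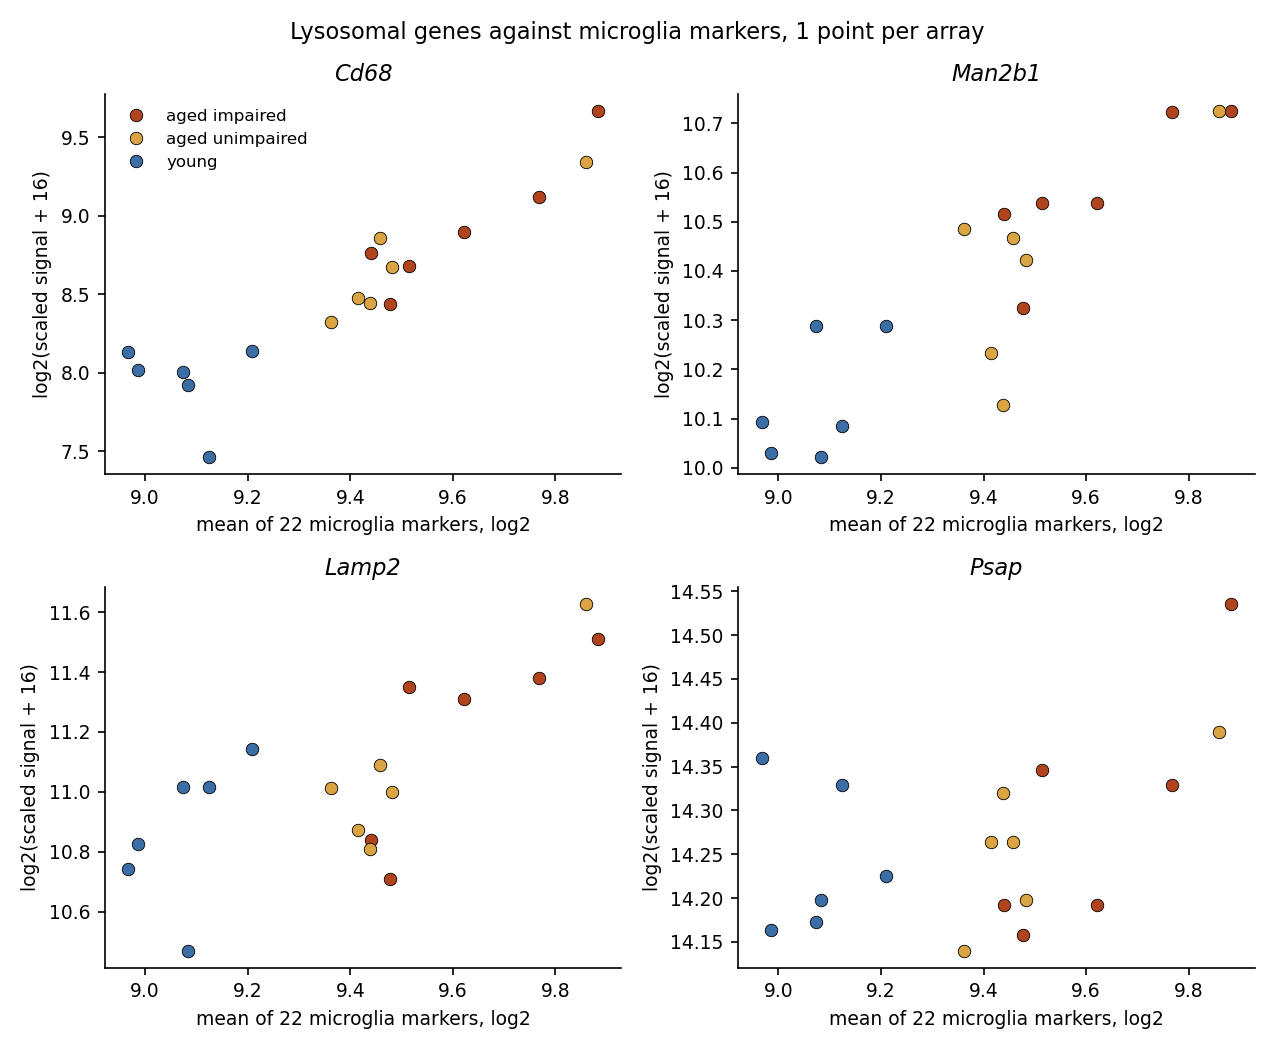
Log2(scaled signal + 16) of Cd68, Man2b1, Lamp2 and Psap against the mean log2 value of 22 microglia markers, with 1 point per array and colours for the aged impaired, aged unimpaired and young groups. The aged arrays lie at 9.36 or above on the horizontal axis and the young arrays at 9.21 or below, and the 2 aged arrays farthest right have the highest Lamp2 values.

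**Figure D5:**
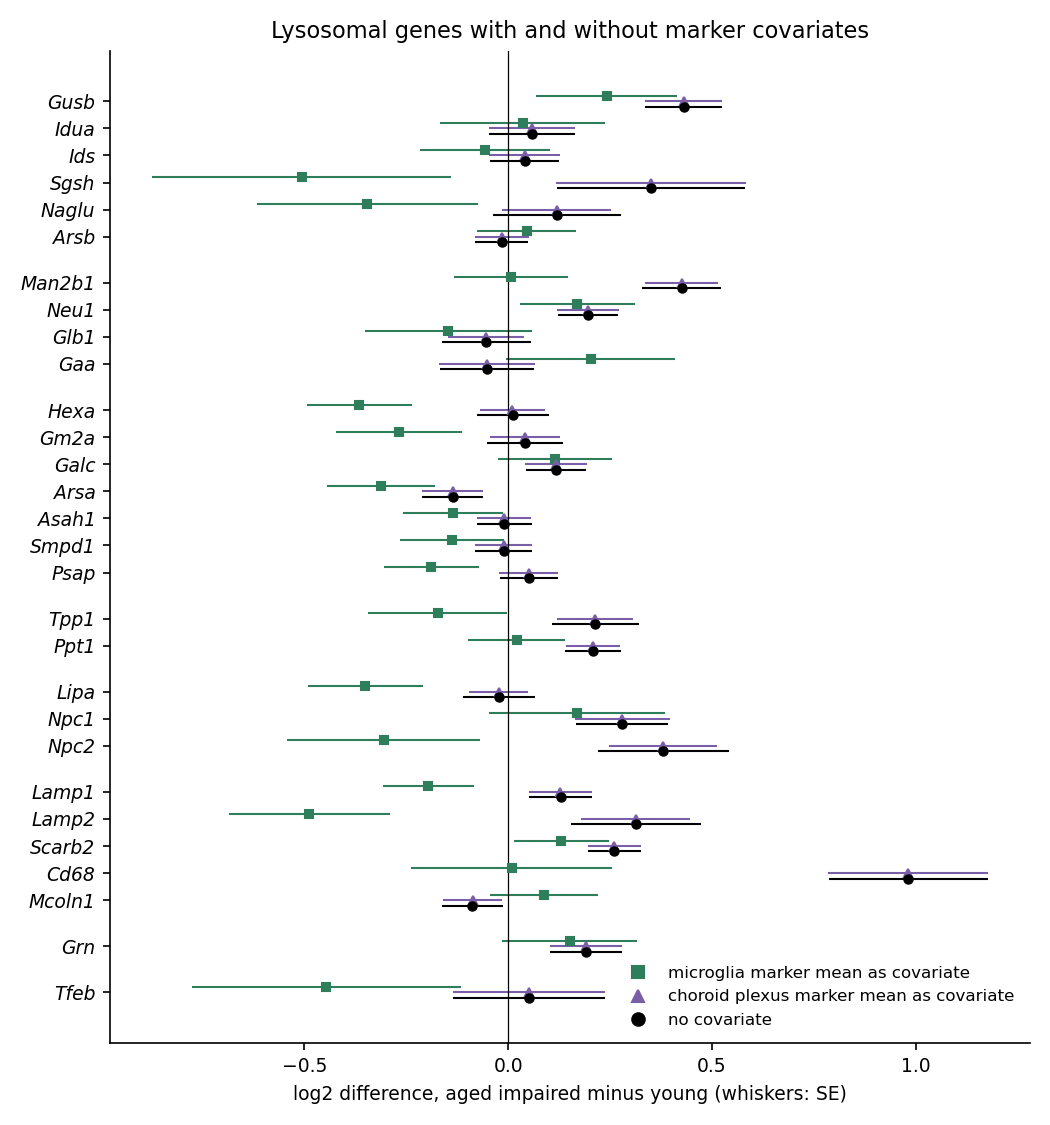
Log2 difference of each lysosomal gene, aged impaired minus young, with the microglia marker mean as a covariate (squares), with the choroid plexus marker mean (triangles) and with neither (circles); whiskers are standard errors. The Cd68 difference is 0.01 with the microglia covariate and 0.98 in both other fits.

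Other markers and RNA quality were compared beside these results. Of 9 oligodendrocyte markers, 2 rose in aged impaired against young samples, against 1.3 percent of all named genes. The mean of the 9 lay between 12.16 and 12.27 in aged impaired samples, between 11.74 and 12.15 in aged unimpaired samples and between 11.66 and 12.19 in young samples. The 2 aged groups did not overlap in that mean, although none of the 9 markers passed between them. Of 10 astrocyte markers, 1 rose in aged impaired against young samples and none fell. It was Gfap, the intermediate filament of astrocytes, by 0.77 ± 0.14 (limma adjusted p = 0.00992). Of the 10, 2 had every aged impaired value above every young value, against 1.44 percent of all named genes. The mean of the 10 lay between 12.28 and 12.45 in aged impaired, between 12.30 and 12.43 in aged unimpaired and between 12.17 and 12.42 in young samples, which overlapped. The median log2 ratio of 3′ to 5′ control probe sets was 0.30 in aged impaired, 0.36 in aged unimpaired and 0.31 in young samples. With that ratio as a covariate, the same 4 lysosomal genes passed in aged impaired against young samples. The part of oligodendrocytes and astrocytes in the lysosomal differences was not tested.

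The rest of the lysosomal system was read from further gene lists in the same comparison of aged impaired with young samples, in which 1.3 percent of all named genes rose. Among cathepsins, the lysosomal proteases, 2 of 11 rose and none fell: Ctss by 0.68 ± 0.13 (limma adjusted p = 0.0111) and Ctsz by 0.88 ± 0.19 (adjusted p = 0.0243). Ctsh differed by 0.48 ± 0.13 (adjusted p = 0.0702), and the median difference of the 11 was 0.28. Among 18 other lysosomal membrane proteins, Laptm5, a transmembrane protein of blood and microglial cells, rose by 0.61 ± 0.10 (adjusted p = 0.0032), none fell, and the median was 0.06. Litaf and Laptm4b of that list differed by 0.39 ± 0.12 (adjusted p = 0.126) and -0.17 ± 0.07 (adjusted p = 0.262).

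In 5 further lists no gene passed in either direction in aged impaired against young samples. Among 15 other lysosomal enzymes the median difference was 0.04, and Arsg, a sulfatase of heparan sulfate, differed by 0.48 ± 0.15 (limma adjusted p = 0.123), and Dnase2a, an acid nuclease, by -0.49 ± 0.20 (adjusted p = 0.233). The 17 subunits of the vacuolar ATPase, the proton pump that acidifies the lysosome, had a median of -0.05 and ran from -0.14 for Atp6v1a to 0.17. The 18 genes of sorting to the lysosome had a median of 0.03, with Vps29 of the retromer at 0.19 ± 0.08 (adjusted p = 0.249). The 13 genes of nutrient sensing at the lysosome had a median of 0.05, with Lamtor1 at 0.18 ± 0.10 (adjusted p = 0.387). The 17 autophagy genes had a median of -0.01 and ran from -0.16 to 0.16, with Atg12 at -0.16 ± 0.07 (limma adjusted p = 0.301).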

How the data were processed

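The authors deposited linear probe set intensity values, which the submitters' processing notes credit to MAS5 (no version named). The deposited table holds 45101 probe sets for the 18 samples, grouped by their titles. Arrays were brought to a common 2%-trimmed mean of 500 before adding 16 and taking log2, so changes of dim probe sets are understated. Control probe sets (64) and the dimmest 40% of the rest were left out. Names came from the platform annotation (34945 probe sets with 1 symbol, 932 with several, 9160 with none), updated through RefSeq (GRCm38.p6), which matched 34754.

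limma 3.58.1 in R 4.3.3 was fitted with 3 group means, 2-sided, for 4 comparisons, after being tested on simulated data. Precision is limited by how many arrays there are. All 30 members are named. Genes that passed, and the 2 of lowest p between the aged groups, are given by group. From each other lysosomal list, up to 3 genes of lowest p in aged impaired against young samples were taken, and some of these are printed. The members and lists were chosen with earlier results of these data known. Tfeb in the plot, the other genes given by group and the promoters printed were chosen after the values were seen, as were the marker slopes, the array counts and the medians under alternatives.

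The alternatives included offsets of 1 and 64, quantile normalization, a 60% filter and none, the sample number as a block, only the groups compared, array weights, trended and robust moderation, covariates for RNA ratio, choroid plexus and microglia, the mean of all probe sets, and leaving out each sample. Same-numbered samples had residual correlations from -0.247 to 0.096, and the labels do not pair them.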

Additional observations from a re-analysis of the deposited data

Results flagged for a closer look

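In 9 of 87 sets of 6 values (29 genes in 3 groups) the highest or lowest array stood apart from the other 5 by Dixon's test, which flags about 1 in 20 groups by chance. Aged unimpaired sample 6 was high for Hexa (11.52, next 11.14), Gm2a (11.29, next 10.94), Lipa (9.53, next 9.17) and Lamp2 (11.63, next 11.09). Aged impaired sample 5 was low for Lipa (9.09, next 9.29) and Npc2 (11.56, next 12.21) and high for Gaa (12.1, next 11.81). Aged unimpaired sample 4 was low for Glb1 (8.52, next 8.96), and young sample 3 was low for Cd68 (7.46, next 7.92).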

How the results depend on the processing

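In aged impaired against aged unimpaired and in aged unimpaired against young samples, 0 lysosomal genes passed limma under every alternative. In aged impaired against young samples 4 passed. With the sample number as a replicate block 1 did (Cd68), as with no filter. Fitting only the groups compared gave 2 (Man2b1, Cd68), the mean of all probe sets 2 (Gusb, Cd68), the microglia covariate 0, and leaving out 1 sample 1 to 4. With both aged groups against young, 1 passed. An offset of 64 and the choroid plexus covariate each gave 2 (Man2b1, Cd68). The 60% filter, array weights, and trended and robust moderation each gave 3 (Man2b1, Scarb2, Cd68). The microglia covariate gave 0, and leaving out 1 sample 0 to 3: 0 without young sample 3, and 3 without aged impaired sample 5 or aged unimpaired sample 2. Over 31 alternatives in aged impaired against young samples, Cd68 passed in 30, Gusb in 21, Man2b1 in 18 and Scarb2 in 9. Not every setting in which Scarb2 did not pass is named above.

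A turned sign was counted where the difference exceeded its standard error or passed in either fit, a rule chosen after seeing many differences near 0. With any turn of sign counted, 49, 44, 45 and 28 values turned in the 4 comparisons in the order aged impaired against aged unimpaired, aged unimpaired against young, aged impaired against young and both aged groups against young, of 898, 898, 898 and 869. By the rule, the microglia covariate turned Man2b1 (-0.055), Ppt1 (-0.0141), Lamp2 (-0.43), Cd68 (-0.0261) and Mcoln1 (0.0542) in aged unimpaired against young samples. It turned Sgsh (-0.51), Tpp1 (-0.17), Npc2 (-0.31), Lamp1 (-0.20), Lamp2 (-0.49) and Mcoln1 (0.0875) in aged impaired against young samples. In both aged groups against young it turned Man2b1 (-0.0239), Tpp1 (-0.22), Npc2 (-0.37), Lamp2 (-0.46), Cd68 (-0.0087) and Mcoln1 (0.0709). The mean of all probe sets turned Galc (-0.0401) and Ppt1 (-0.0133) between the aged groups, Sgsh (-0.0353) and Galc (-0.14) in aged impaired against young, and Galc (-0.12) in both aged groups against young. Apart from the probe sets averaged, the cause was not tested.

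No pairing by sample number was seen: 0 of 18 samples correlated best with their own number. This count cannot exclude a weak pairing.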

Other observations

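Dimmer probe sets of Idua, Galc and Sgsh, chosen after their values were seen, had lower means in both aged groups than in young samples, and none passed limma. Dimmer probe sets of other lysosomal genes also had lower means in both aged groups, among them that of Arsb, 1429190_at, at 7.80 in aged impaired and 8.01 in aged unimpaired against 8.07 in young samples. The second Idua probe set, 1449230_at, had values of 6.92, 7.31 and 7.78 in aged impaired, 6.82, 7.07 and 7.47 in aged unimpaired and 7.47, 7.68 and 7.92 in young samples (lowest, median and highest). It differed by -0.54 ± 0.15 in aged unimpaired against young samples (adjusted p = 0.254) and by -0.34 ± 0.15 in aged impaired against young samples (adjusted p = 0.280). The second Galc probe set, 1420547_at, differed by -0.41 ± 0.16 in aged impaired against young samples (adjusted p = 0.216), where the brightest differed by 0.12 ± 0.07. The second Sgsh probe set, 1422988_at, differed by -0.42 ± 0.32 (adjusted p = 0.555), where the brightest differed by 0.35 ± 0.23.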
